A study of Mus musculus with 8 samples.

Results

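The fibroblast growth factor (FGF), platelet-derived growth factor (PDGF) and epidermal growth factor (EGF) families were examined in RNA from isolated epididymal white adipocytes of mice that lack the transcriptional co-activators YAP and TAZ in adipocytes. Members were the protein-coding genes whose symbol is that of an FGF, an FGF receptor, a PDGF or PDGF receptor, an EGF receptor (Egfr, Erbb2, Erbb3 and Erbb4), a neuregulin or 1 of the EGFR ligands Egf, Tgfa, Areg, Ereg, Hbegf and Btc. The rule took 47 of the 30387 genes in the table, among 17824 protein-coding genes, and used no expression value. Fgf12 and Fgf20 were not analysed here. Fgfr1op and Fgfr1op2 were taken by their symbol alone, and they encode partners of FGFR1 in fusion proteins rather than growth factors or receptors.

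The 4 groups were wild-type (WT) littermates and Ad-Yap/Taz-KO mice, each fed normal chow (NC) or a high-fat diet (HFD) for 4 weeks from week 5 of age per the labels (the methods name a later week), with 2 libraries in each group. In Ad-Yap/Taz-KO mice both floxed genes are deleted by Cre recombinase under the adiponectin (Adipoq) promoter, so cells other than adipocytes keep YAP and TAZ. The mice were males by the methods, and each group is described as 2 mice.

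These families signal through receptor tyrosine kinases. Paracrine FGFs bind FGFR1 to FGFR4 with heparan sulfate, endocrine FGFs such as FGF21 need a klotho co-receptor, and the FGF homologous factors stay inside the cell and modulate sodium channels. PDGF dimers bind PDGFRα and PDGFRβ, which mark fibroblasts with adipocyte progenitors and mural cells in fat, while EGFR ligands are shed from the membrane and neuregulins bind ERBB3 and ERBB4. In adipose tissue FGF1 and FGF21 are known as metabolic signals, FGF10 takes part in fat cell development, and NRG4 is known as a factor secreted by fat.

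Values are normalized counts, meaning the reads of a gene after the authors scaled each library by its size factor and rounded. Between 13.99 and 22.3 M reads lay on genes in a library. A listed 0 allows up to 3 reads, or 2.39 to 3.41 normalized counts (counting error only). A log2 fold change is a difference between group means of log2(normalized count + 1), fitted with limma across 18800 genes, and "called" means that p, adjusted after Benjamini and Hochberg, did not exceed 0.05 and that the log2 fold change was 0.59 or more in size. Every adjusted p is limma's, since an exact permutation test of 2 libraries against 2 cannot give a two-sided p below 0.333.

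Wwtr1, which encodes TAZ, had 5594 and 4743 normalized counts in WT on NC, 2441 and 1957 in Ad-Yap/Taz-KO on NC, 7121 and 6807 in WT on HFD, and 2060 and 2707 in Ad-Yap/Taz-KO on HFD. Yap1 had 2776 and 2717, 1669 and 1699, 2468 and 2333, and 1549 and 2068 in the same order. Wwtr1 was lower in Ad-Yap/Taz-KO on NC (log2 fold change -1.24, adjusted p = 0.00097) and on HFD (-1.56, adjusted p = 3.1e-05), and Yap1 on NC (-0.71, adjusted p = 0.024), while Yap1 on HFD missed the limit (-0.42, adjusted p = 0.059). The mean squared difference between the WT HFD libraries was 5.03 times that of counting noise among genes with 100 to 500 reads and 5.87 times among genes with 1000 to 5000 reads, where the other groups had 7.40 to 13.9 and 27.8 to 71.3 times. Among genes with 5 to 20 reads it was 4.72 times and did not stand apart from the other groups (4.63 to 6.33). Although described as 2 mice, they may from the genes with more reads be 1 sample sequenced more than once, and a fit that averages them to 1 sample is given wherever it ends the call of a member or of a pathway gene. The call of Yap1 on NC was lost in that fit (adjusted p = 0.075) and without any 1 library other than the Ad-Yap/Taz-KO HFD libraries (adjusted p = 0.07 to 0.17). Each member call that the averaged fit ended was lost as well when 1 or the other of these libraries was left out.

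Adipocyte markers were high in every library, with a sum over 8 genes of 183966 and 198087 normalized counts in WT on NC, 148563 and 215178 in Ad-Yap/Taz-KO on NC, 344939 and 337760 in WT on HFD, and 163461 and 80897 in Ad-Yap/Taz-KO on HFD. Markers of other cells were present too. The sum of 8 macrophage markers was 1997 to 2084 in WT on HFD and 25419 to 26571 in Ad-Yap/Taz-KO on HFD, and that of 8 fibroblast or progenitor markers was 21718 to 22094 against 66960 to 74402. On NC the macrophage sum was 4275 to 4331 for WT and 14467 to 26295 for Ad-Yap/Taz-KO, and the fibroblast sum 28872 to 34693 and 31776 to 50148. Between genotypes on HFD, 7 of 8 adipocyte markers were called lower, 7 of 8 macrophage markers and 6 of 8 fibroblast markers higher (5 with WT HFD as 1 sample), so fewer cells of a type and less RNA per cell cannot be told apart for any family gene below.

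Of the 47 members, 36 had a mean of at least 5 normalized counts and were tested. The 11 others were Fgf3, Fgf4, Fgf5, Fgf6, Fgf8, Fgf16 and Fgf22 among the paracrine FGFs, the endocrine Fgf15 and Fgf23, and the neuregulins Nrg1 and Nrg3, with 0 to 22 normalized counts in any library. Between genotypes on HFD, 15 of 36 members were called (41.7%), against 32.2% of all genes tested, with 8 higher in the knockout (17.1% of all genes were) and 7 lower (15.1%). The median log2 fold change of the members was 0.17, that of all genes 0.095. On NC 1 of 36 was called (2.8%, against 4.71% of all genes), and it was higher in Ad-Yap/Taz-KO (3.21% of all genes were higher and 1.50% lower). The median was -0.10 for the members and -0.01 for all genes.

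HFD against NC gave 9 calls in WT (25.0%, against 18.0% of all genes), of which 3 were higher on HFD (8.74%) and 6 lower (9.22%), and the median was -0.19 for the members and -0.08 for all genes. In Ad-Yap/Taz-KO mice it gave 3 calls (8.3%, against 1.07%), 1 higher (0.383%) and 2 lower (0.691%), with medians of 0.16 and 0.03. The genotype effect differed between diets for 12 members (33.3%, against 17.4%). It was more positive on HFD than on NC for 5 (8.69%) and more negative for 7 (8.73%). These comparisons share libraries, the WT HFD pair entering 3 of them. Scaling each library to the same total moved the median of all genes from 0.095 to 0.47 between genotypes on HFD, from -0.08 to -0.48 for diet in WT and from 0.098 to 0.52 for the difference of effects, where the calls among members became 9 higher and 5 lower, 3 and 7, and 6 and 4. Of the 18800 genes, 4617 were then called higher and 1367 lower between genotypes on HFD, 470 and 3567 for diet in WT, and 2610 and 619 for the difference of effects. Quantile normalization moved the split on HFD the other way, to 4 higher and 7 lower (13.5% and 13.9% of all genes), and the calls of Fgf7, Fgf18, Areg and Pdgfrl (higher) and of Fgfr1op2 (lower) were lost under it, while Egf was called lower.

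**Figure D1:**
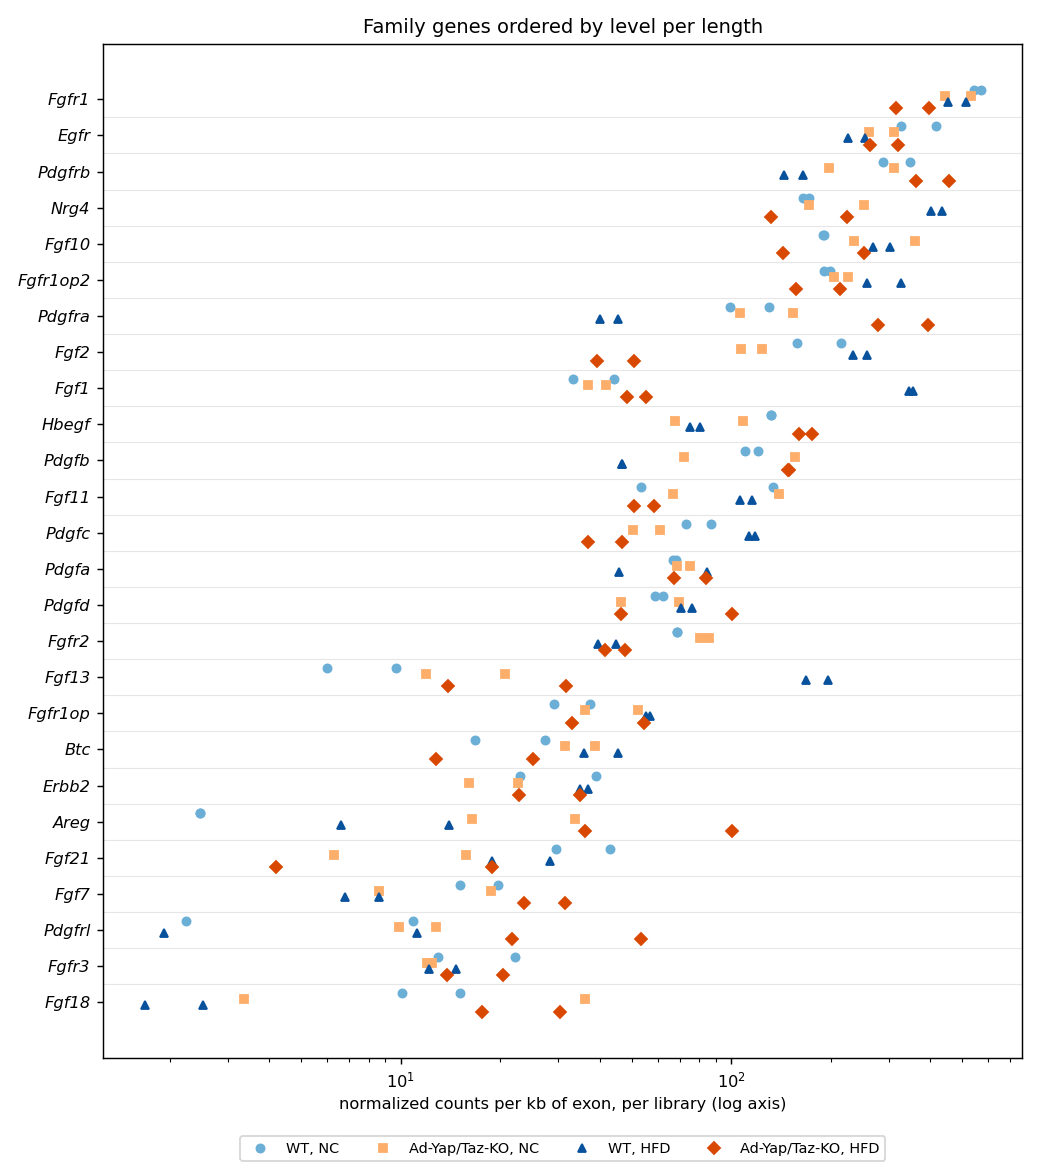
Normalized counts per kb of exon (log axis) in each of the 8 libraries for the tested members with a mean of at least 10 per kb, ordered by that mean and coloured by group. Fgfr1 has the highest mean, and the points of Fgf1 and Fgf13 in WT on HFD lie apart from those of the other 3 groups.

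Levels of different genes were compared as normalized counts per kb of exon. Fgfr1 had the highest mean of the members, 471 per kb over the 8 libraries and a range from 315 to 569. Egfr followed with 298 per kb (226 to 418) and Pdgfrb with 284 per kb (145 to 457), and their ranges over libraries overlap each other and that of Fgfr1. By the mean over the 8 libraries, Nrg4 with 244 per kb and Fgf10 with 243 per kb led the ligands, followed by Fgf2 with 148 per kb and Fgf1 with 120 per kb, and Pdgfra lay at 156 per kb. By the same mean Pdgfb led the PDGF ligands (107 per kb), Hbegf the EGFR ligands (117 per kb) and Fgf11 the homologous factors (90.7 per kb). These orders differed between groups. In WT on HFD Fgf1 (350 per kb) lay above Fgf10 (286 per kb), Fgf13 (183 per kb) above Fgf11 (111 per kb) and Pdgfc (116 per kb) above Pdgfb (46.7 per kb), in both libraries each. In WT on NC Fgf2 (187 per kb) had a higher mean than Nrg4 (169 per kb), with libraries that overlap, and in Ad-Yap/Taz-KO on HFD Pdgfrb (409 per kb) had a higher mean than Fgfr1 (356 per kb), also with overlap. Fgf21, the 1 endocrine FGF that was tested, had 20.6 per kb.

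Sequences before annotated transcription starts are shown for members whose level differed between genotypes on HFD, because YAP and TAZ act on DNA through TEAD factors, often together with AP-1. RefSeq windows of GRCm38.p6 were found for 32 of the 47 members, with 39 starts, and for 10 of the 15 members called on HFD. The TEAD core GGAATG, searched on both strands in the 250 bases before the start, was in 12.6% of all 32851 windows and in 4 of the 39 (10.3%), those of Erbb2, Fgf11, Fgf3 and Pdgfc. The AP-1 letters TGANTCA were in 6.7% of all windows and in 1 of the 39 (2.6%), a start of Fgf13. The lines below give Pdgfc at chr3:81036166-81036415 (plus strand) with GGAATG in capitals 137 bases before the start, Fgf13 at chrX:59166165-59166338 (minus strand, the 174 bases outside other exons) with TGAATCA in capitals 156 bases before this start, and, with no match, Pdgfra at chr5:75152001-75152250 (plus strand) and Nrg4 at chr9:55283626-55283875 (minus strand), each 5′ to 3′.
Pdgfc: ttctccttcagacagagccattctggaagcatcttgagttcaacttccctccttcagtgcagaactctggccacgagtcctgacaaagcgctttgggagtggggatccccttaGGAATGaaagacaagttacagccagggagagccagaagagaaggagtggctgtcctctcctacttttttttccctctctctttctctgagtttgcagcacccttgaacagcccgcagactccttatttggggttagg
Fgf13: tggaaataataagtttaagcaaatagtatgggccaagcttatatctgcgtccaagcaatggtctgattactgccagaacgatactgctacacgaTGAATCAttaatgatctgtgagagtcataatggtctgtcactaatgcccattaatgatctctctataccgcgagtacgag
Pdgfra: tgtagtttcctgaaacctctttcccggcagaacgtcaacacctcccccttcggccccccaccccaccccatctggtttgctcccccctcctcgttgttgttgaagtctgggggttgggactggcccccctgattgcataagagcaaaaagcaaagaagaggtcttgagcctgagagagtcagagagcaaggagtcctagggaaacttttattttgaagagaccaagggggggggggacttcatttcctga
Nrg4: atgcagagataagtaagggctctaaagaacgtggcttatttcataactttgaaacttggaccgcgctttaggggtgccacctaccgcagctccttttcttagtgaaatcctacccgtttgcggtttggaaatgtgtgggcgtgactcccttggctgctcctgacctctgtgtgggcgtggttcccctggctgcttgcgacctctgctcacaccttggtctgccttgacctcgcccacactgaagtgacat
A match describes letters, not binding.

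The paracrine FGFs Fgf1 and Fgf2, which act on FGFR1, were lower in Ad-Yap/Taz-KO on HFD. Fgf1, whose gene lies on chromosome 18 (38838673 to 38929404, minus strand, GRCm38) and whose protein binds all FGF receptors, had 181 and 241 normalized counts in WT on NC, 229 and 201 in Ad-Yap/Taz-KO on NC, 1943 and 1885 in WT on HFD, and 301 and 265 in Ad-Yap/Taz-KO on HFD. The WT HFD libraries stood far above the other 6, and the genotypes overlapped on NC. Fgf1 was 9.12-fold higher on HFD than on NC in WT (log2 fold change 3.19 with SE 0.21, adjusted p = 2.4e-05) and 6.76-fold lower in Ad-Yap/Taz-KO than in WT on HFD (-2.76 with SE 0.21, adjusted p = 1.2e-06). HFD against NC in Ad-Yap/Taz-KO gave 0.40 (95% confidence interval -0.06 to 0.85, adjusted p = 0.38), and the genotype effect differed between diets by -2.80 (adjusted p = 0.00098).

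Fgf2, a mitogen of progenitor and endothelial cells on chromosome 3 (37348346 to 37410108, plus strand), had 1074 and 1457 normalized counts in WT on NC, 727 and 842 in Ad-Yap/Taz-KO on NC, 1747 and 1590 in WT on HFD, and 344 and 266 in Ad-Yap/Taz-KO on HFD. Both Ad-Yap/Taz-KO HFD libraries were below every other library. Fgf2 was 5.5-fold lower in Ad-Yap/Taz-KO on HFD (log2 fold change -2.46, adjusted p = 2e-06), and the difference on NC was -0.68 (95% confidence interval -1.11 to -0.25, adjusted p = 0.08), called under 3 other scalings and without either Ad-Yap/Taz-KO HFD library (adjusted p = 0.04 to 0.049). On HFD against NC it fell in Ad-Yap/Taz-KO (-1.37, adjusted p = 0.0095) and gave 0.41 in WT (adjusted p = 0.16), a difference of effects of -1.78 (adjusted p = 0.0037). The fall in Ad-Yap/Taz-KO was not called with WT HFD as 1 sample, or without the second Ad-Yap/Taz-KO library on NC (-1.26, adjusted p = 0.088) or on HFD (-1.18, adjusted p = 0.051). Of the exon bases of Fgf2, 9.4% overlap those of Nudt6 on the opposite strand, and whether counting used the strand is not stated. The antisense gene Fgf2os, a row of its own, was listed at 85 and 122 in WT on HFD and at 23 and 5 in Ad-Yap/Taz-KO on HFD.

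Fgf7 and Fgf18 went the other way on HFD. Fgf7, a ligand of the epithelial FGFR2 isoform that is made by mesenchymal cells, had 49 and 64 normalized counts in WT on NC, 61 and 28 in Ad-Yap/Taz-KO on NC, 22 and 28 in WT on HFD, and 77 and 102 in Ad-Yap/Taz-KO on HFD. Fgf18, known from skeletal and lung development, had 18 and 12, 43 and 4, 3 and 2, and 21 and 36. Both genes had higher values in the Ad-Yap/Taz-KO HFD libraries than in the WT HFD libraries, while the genotypes overlapped on NC. Fgf7 gave a log2 fold change of 1.80 (adjusted p = 0.014), and its genotype effect differed between diets by 2.22 (adjusted p = 0.045). Fgf18 rested on 68 reads in the knockout and 5 in WT, a ratio of 11.7 with an exact (Clopper-Pearson based) 95% counting interval of 4.78 to 37.2, which covers counting error only and not the larger spread between libraries (adjusted p = 0.032). Both HFD calls were lost with WT HFD as 1 sample, and without the second Ad-Yap/Taz-KO HFD library Fgf7 gave 1.60 (adjusted p = 0.11) and Fgf18 2.67 (adjusted p = 0.19). The Fgf18 call was lost without 5 of the 8 libraries in turn (adjusted p = 0.051 to 0.19), and the difference of effects of Fgf7 without 7 of them (adjusted p = 0.058 to 0.16).

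Fgf10, which signals from mesenchyme through FGFR2, had 875 and 882 normalized counts in WT on NC, 1081 and 1662 in Ad-Yap/Taz-KO on NC, 1239 and 1395 in WT on HFD, and 1164 and 659 in Ad-Yap/Taz-KO on HFD. It was above WT in both Ad-Yap/Taz-KO libraries on NC and below WT in both on HFD, but neither difference was called (0.61, adjusted p = 0.24, and -0.59, adjusted p = 0.094). Without the first Ad-Yap/Taz-KO HFD library the HFD difference was called (adjusted p = 0.007), as was HFD against NC in the knockout (-1.02, adjusted p = 0.034). The difference between these effects was called (-1.19, adjusted p = 0.039). It was not called without a filter on low values, with WT HFD as 1 sample, or when any of 6 libraries was left out (-0.78 to -1.28). Fgf9 and Fgf17, the other tested paracrine FGFs, had 1 to 25 normalized counts and no call.

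Among the homologous factors, Fgf13 showed the largest rise on HFD of any tested member in WT. It lies on chromosome X (59062145 to 59568071, minus strand) and had 24 and 39 normalized counts in WT on NC, 48 and 83 in Ad-Yap/Taz-KO on NC, 790 and 678 in WT on HFD, and 127 and 56 in Ad-Yap/Taz-KO on HFD. Again the WT HFD pair lay apart from the other 6 libraries. The rise in WT was 23.2-fold (log2 fold change 4.54 with SE 0.43, adjusted p = 0.0001), the level in Ad-Yap/Taz-KO on HFD was 8.58-fold lower than in WT (-3.10, adjusted p = 0.00018), and the genotype effect differed between diets by -4.12 (adjusted p = 0.003). On NC the difference was 1.02 (95% confidence interval 0.08 to 1.96, adjusted p = 0.25).

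Fgf11 had 163 and 409, 203 and 426, 323 and 352, and 178 and 155 normalized counts in WT on NC, Ad-Yap/Taz-KO on NC, WT on HFD and Ad-Yap/Taz-KO on HFD. Both Ad-Yap/Taz-KO HFD libraries were below both WT HFD libraries, without a call (-1.02, adjusted p = 0.067). It was called with the compared groups alone (adjusted p = 0.014), with the replicate block (0.044), and without any 1 of the 4 NC libraries (0.036 to 0.041). Fgf14 had 0 to 22 normalized counts and no call. Fgf21, the fasting and stress hormone of this family, had 41 and 28 in WT on NC, 6 and 15 in Ad-Yap/Taz-KO on NC, 18 and 27 in WT on HFD, and 18 and 4 in Ad-Yap/Taz-KO on HFD. Its genotypes did not overlap on NC and did on HFD, and the log2 fold changes of -1.72 (95% confidence interval -3.49 to 0.04) and -1.24 (-3.01 to 0.52) were not called (adjusted p = 0.31 and 0.26).

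No FGF receptor was called between genotypes on either diet with all 8 libraries. Fgfr1, the main receptor of fat cells for FGF1 and FGF21, had 5619 and 5364 normalized counts in WT on NC, 4375 and 5253 in Ad-Yap/Taz-KO on NC, 4467 and 5089 in WT on HFD, and 3920 and 3110 in Ad-Yap/Taz-KO on HFD. Both Ad-Yap/Taz-KO HFD libraries were below the other 6, but the log2 fold change of -0.45 (95% confidence interval -0.81 to -0.09) was smaller than the limit for a call. It was -0.06 (adjusted p = 0.76) with libraries scaled to the same total, and it was called without the first Ad-Yap/Taz-KO HFD library (-0.62). Fgfr2, the receptor of FGF7 and FGF10, had 707 and 707, 884 and 830, 410 and 464, and 492 and 428. It was lower on HFD than on NC in both genotypes, with -0.70 in WT (adjusted p = 0.017) and -0.90 in Ad-Yap/Taz-KO (adjusted p = 0.032), and the genotype effect did not pass the test for a difference between diets (-0.20, 95% confidence interval -0.74 to 0.33). Both Fgfr2 calls were lost with WT HFD as 1 sample, the first also without any 1 of the 4 libraries it compares (adjusted p = 0.084 to 0.14), and the second without any of 6 (0.078 to 0.17). Fgfr3 (86 to 159) and Fgfr4 (2 to 52 normalized counts) had no call with all 8 libraries, and Fgfr4 was called higher in the knockout on HFD without the second WT HFD library (adjusted p = 0.041).

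**Figure D2:**
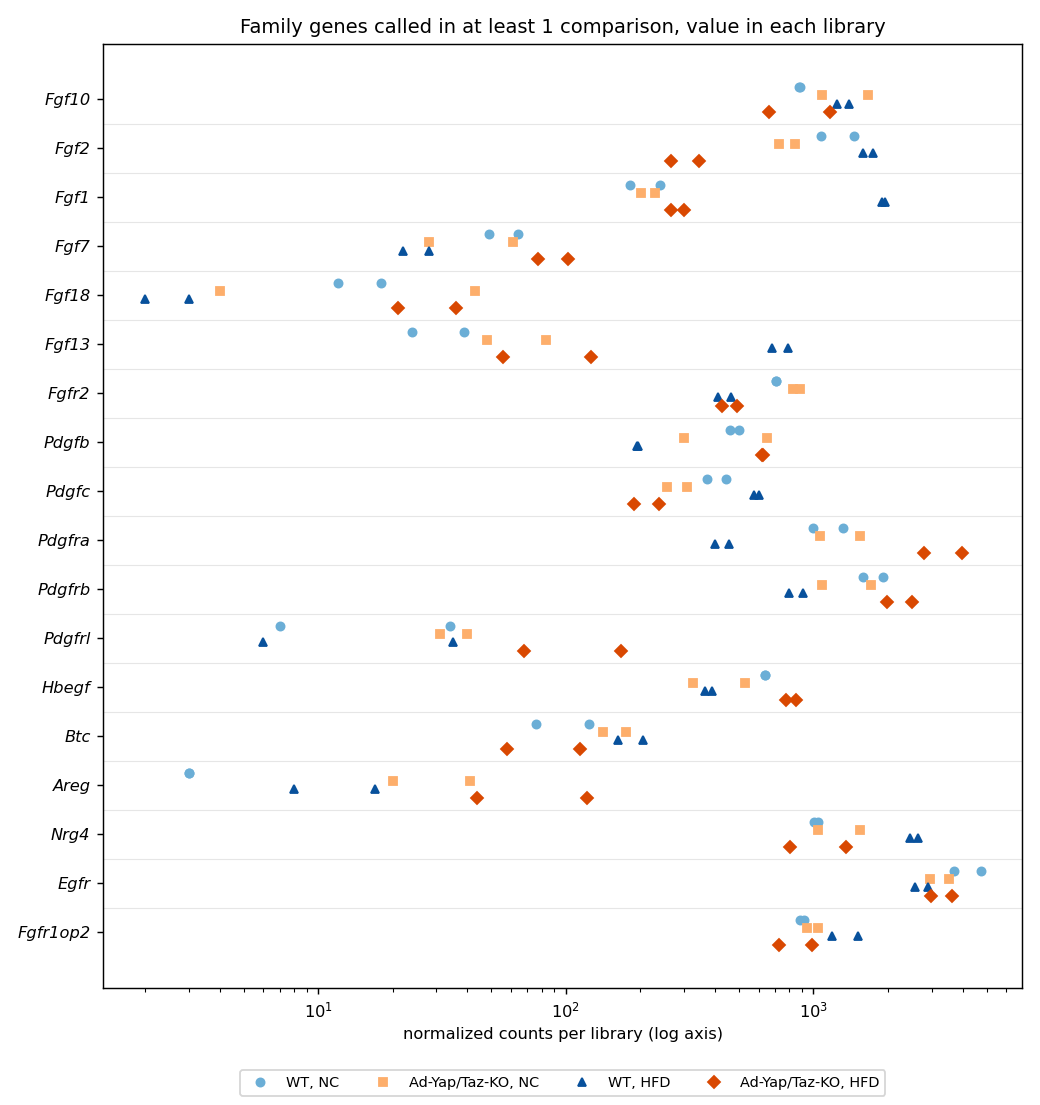
Normalized counts (log axis) in each of the 8 libraries for the 18 members called in at least 1 of the 5 comparisons, with 2 points per group. For Fgf1, Fgf2, Fgf13, Pdgfc and Nrg4 the WT HFD points lie above the Ad-Yap/Taz-KO HFD points, and for Pdgfra, Pdgfrb, Pdgfb and Hbegf below them.

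Both PDGF receptors were higher in Ad-Yap/Taz-KO on HFD. Pdgfra, a marker of fibroblasts and adipocyte progenitors on chromosome 5 (75152292 to 75198215, plus strand), had 1310 and 993 normalized counts in WT on NC, 1544 and 1063 in Ad-Yap/Taz-KO on NC, 402 and 455 in WT on HFD, and 2789 and 3960 in Ad-Yap/Taz-KO on HFD. The WT HFD libraries were the lowest and the Ad-Yap/Taz-KO HFD libraries the highest, while the genotypes overlapped on NC. It was 7.76-fold higher in Ad-Yap/Taz-KO on HFD (log2 fold change 2.96 with SE 0.22, adjusted p = 1.2e-06), with 0.17 on NC (95% confidence interval -0.32 to 0.65). On HFD against NC it fell in WT (-1.41, adjusted p = 0.0019) and rose in Ad-Yap/Taz-KO (1.38, adjusted p = 0.016), and the difference of effects was 2.79 (adjusted p = 0.0013). The rise in Ad-Yap/Taz-KO was not called with WT HFD as 1 sample, nor without the second Ad-Yap/Taz-KO library on NC (1.11, adjusted p = 0.16) or on HFD (1.12, adjusted p = 0.10).

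Pdgfrb, which marks pericytes and other mural cells and is also expressed by fibroblasts, had 1901 and 1584 normalized counts in WT on NC, 1710 and 1083 in Ad-Yap/Taz-KO on NC, 794 and 907 in WT on HFD, and 1981 and 2503 in Ad-Yap/Taz-KO on HFD. Both WT HFD values were below the other 6. Pdgfrb was 2.62-fold higher in Ad-Yap/Taz-KO on HFD (log2 fold change 1.39, adjusted p = 0.00037) and lower on HFD than on NC in WT (-1.03, adjusted p = 0.0073), and the genotype effect differed between diets by 1.74 (adjusted p = 0.0053). The diet call in WT was lost with WT HFD as 1 sample and without the first WT NC library (-0.90, adjusted p = 0.096). Pdgfrl, a secreted protein similar to the receptors, had 34 and 7, 31 and 40, 35 and 6, and 68 and 167, with replicates that spread widely. Its log2 fold change on HFD of 2.76 (adjusted p = 0.025) was not called with WT HFD as 1 sample or without the second Ad-Yap/Taz-KO HFD library (2.12, adjusted p = 0.20).

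The PDGF ligands split. Pdgfb, made mainly by endothelial cells and macrophages in tissues, had 502 and 460 normalized counts in WT on NC, 651 and 299 in Ad-Yap/Taz-KO on NC, 195 and 194 in WT on HFD, and 625 and 620 in Ad-Yap/Taz-KO on HFD. The WT HFD libraries were the lowest of the 8, and the Ad-Yap/Taz-KO NC libraries differed from each other by more than the NC groups did. Pdgfb was 3.19-fold higher in Ad-Yap/Taz-KO on HFD (log2 fold change 1.67, adjusted p = 0.00085), lower on HFD than on NC in WT (-1.30, adjusted p = 0.01), and differed in its genotype effect between diets by 1.80 (adjusted p = 0.014). The last pair of calls was lost with WT HFD as 1 sample and without the first WT NC library (-1.24 and 1.73, adjusted p = 0.098 and 0.076), the diet call also without the second (-1.36, adjusted p = 0.058).

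Pdgfc, a ligand of PDGFRα that needs proteolytic activation, had 373 and 444 normalized counts in WT on NC, 257 and 310 in Ad-Yap/Taz-KO on NC, 576 and 603 in WT on HFD, and 238 and 188 in Ad-Yap/Taz-KO on HFD. The knockout was below WT in every library on both diets. It was 2.78-fold lower on HFD (log2 fold change -1.47, adjusted p = 0.00025), with -0.53 on NC (95% confidence interval -0.99 to -0.06, adjusted p = 0.23). The difference of effects of -0.95 (adjusted p = 0.05) was called in 2 of 10 alternatives. Pdgfa (143 to 263) and Pdgfd (146 to 317 normalized counts) were called in no comparison, and 26.1% of the exon bases of Pdgfa overlap a gene on the opposite strand.

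**Figure D3:**
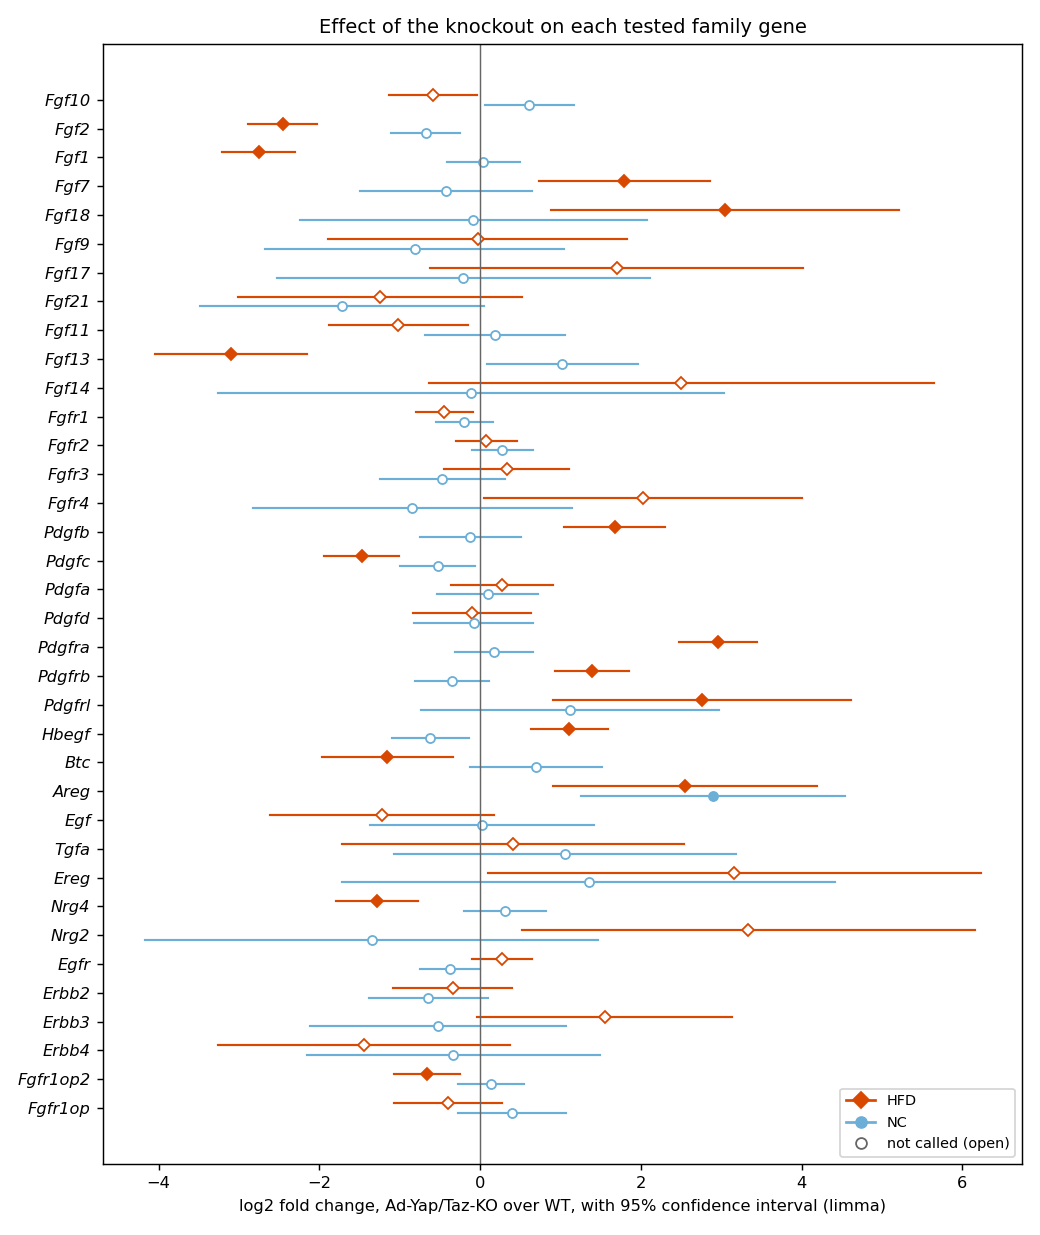
Log2 fold change of Ad-Yap/Taz-KO over WT with its 95% confidence interval (limma) for the 36 tested members, in diamonds on HFD and circles on NC, filled where called. On HFD 15 members are filled and on NC only Areg, and the intervals widen towards the members with few reads.

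Among EGFR ligands, Hbegf and Areg were higher and Btc lower in Ad-Yap/Taz-KO on HFD. Hbegf, a heparin-binding ligand of EGFR and ERBB4, had 638 and 639 normalized counts in WT on NC, 527 and 326 in Ad-Yap/Taz-KO on NC, 364 and 388 in WT on HFD, and 778 and 847 in Ad-Yap/Taz-KO on HFD. The knockout was below WT on NC and above it on HFD, with no overlap on either diet. The log2 fold change was 1.11 on HFD (adjusted p = 0.0021) and -0.62 on NC (adjusted p = 0.16), and these differed by 1.73 (adjusted p = 0.0059). Hbegf fell on HFD in WT (-0.76, adjusted p = 0.03), a call lost with WT HFD as 1 sample or without either WT NC library (-0.76, adjusted p = 0.13 and 0.15), and gave 0.97 in Ad-Yap/Taz-KO (adjusted p = 0.059), called with a pseudocount of 8, under quantile normalization and without the first Ad-Yap/Taz-KO NC library (adjusted p = 0.0078 to 0.049). Without that library its difference on NC was called too (-0.97, adjusted p = 0.023).

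Areg, encoding the EGFR ligand amphiregulin, was the 1 member called on NC. It had 3 and 3 normalized counts in WT on NC, 41 and 20 in Ad-Yap/Taz-KO on NC, 17 and 8 in WT on HFD, and 44 and 122 in Ad-Yap/Taz-KO on HFD, so the knockout was above WT on both diets. On NC 60 reads stood against 6, a ratio of 9.58 with a 95% counting interval of 4.15 to 27.1 that again covers counting error only (adjusted p = 0.048). The log2 fold change between genotypes on HFD was 2.55 (adjusted p = 0.021), and the effects on the 2 diets differed by -0.35 (95% confidence interval -2.67 to 1.98). The NC call was lost when any 1 library was left out (adjusted p = 0.056 to 0.21), and the HFD call with WT HFD as 1 sample or without the second Ad-Yap/Taz-KO HFD library (1.82, adjusted p = 0.23).

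Btc, encoding betacellulin, had 76 and 124, 142 and 175, 162 and 205, and 114 and 58 normalized counts in WT on NC, Ad-Yap/Taz-KO on NC, WT on HFD and Ad-Yap/Taz-KO on HFD. The knockout was above WT on NC and below it on HFD in every library. The log2 fold change was -1.15 on HFD (adjusted p = 0.032) and 0.69 on NC (adjusted p = 0.39), and the effects differed by -1.85 (adjusted p = 0.034). Both calls were lost with WT HFD as 1 sample, under scaling to the same total, and without the second Ad-Yap/Taz-KO HFD library, where the HFD value was -0.67 (adjusted p = 0.26). Egf (6 to 54), Tgfa (3 to 35) and Ereg (0 to 39 normalized counts) were not called with all libraries on the deposited scale and a pseudocount of 1. Egf was called lower in the knockout on HFD under quantile normalization (-2.08, adjusted p = 0.048) and without the first Ad-Yap/Taz-KO HFD library (-2.04, adjusted p = 0.046). Ereg was called higher with a pseudocount of 8 (adjusted p = 0.029), with the compared groups alone (0.034) and without either Ad-Yap/Taz-KO NC library (0.044 and 0.025).

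Nrg4 was the neuregulin with reads in quantity. It lies on chromosome 9 (55220222 to 55326844, minus strand) and had 1003 and 1045 normalized counts in WT on NC, 1044 and 1537 in Ad-Yap/Taz-KO on NC, 2446 and 2641 in WT on HFD, and 1358 and 802 in Ad-Yap/Taz-KO on HFD. The WT HFD libraries were above the other 6, and the other groups overlapped. Nrg4 rose on HFD in WT (log2 fold change 1.31, adjusted p = 0.0038), was 2.43-fold lower in Ad-Yap/Taz-KO on HFD (-1.28, adjusted p = 0.0013), and its genotype effect differed between diets by -1.59 (adjusted p = 0.01). The first and last of these calls were lost with WT HFD as 1 sample and without the first WT NC library (1.28 and -1.56, adjusted p = 0.058 and 0.063). Nrg2 had 0 to 17 normalized counts and no call with all libraries and a pseudocount of 1. It was called higher in the knockout on HFD with a pseudocount of 8, with the compared groups alone and without either Ad-Yap/Taz-KO NC library.

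No ERBB receptor was called between genotypes on the deposited scale. Egfr had 3699 and 4732 normalized counts in WT on NC, 2962 and 3520 in Ad-Yap/Taz-KO on NC, 2887 and 2564 in WT on HFD, and 2975 and 3618 in Ad-Yap/Taz-KO on HFD, with the highest values in WT on NC. It was lower on HFD than on NC in WT (log2 fold change -0.62, adjusted p = 0.026), a call lost with WT HFD as 1 sample or without either WT NC library (-0.80 and -0.44, adjusted p = 0.067 and 0.20). The genotype gave 0.27 on HFD (95% confidence interval -0.11 to 0.65) and -0.37 on NC (-0.75 to 0.00). Scaled to the same total, Egfr was called higher in Ad-Yap/Taz-KO on HFD (0.66, adjusted p = 0.015), and the difference of its effects was called under 3 other scalings (1.07, adjusted p = 0.016, with the same total). Erbb2, the partner receptor without a ligand, had 84 to 204 normalized counts, Erbb3 8 to 41 and Erbb4 5 to 46. Fgfr1op2, taken by its symbol, had 918 and 883, 944 and 1040, 1507 and 1193, and 989 and 725, with a log2 fold change on HFD of -0.66 (adjusted p = 0.017) that was lost with WT HFD as 1 sample, under 3 other scalings, and without the second Ad-Yap/Taz-KO HFD library (-0.44, adjusted p = 0.13).

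**Figure D4:**
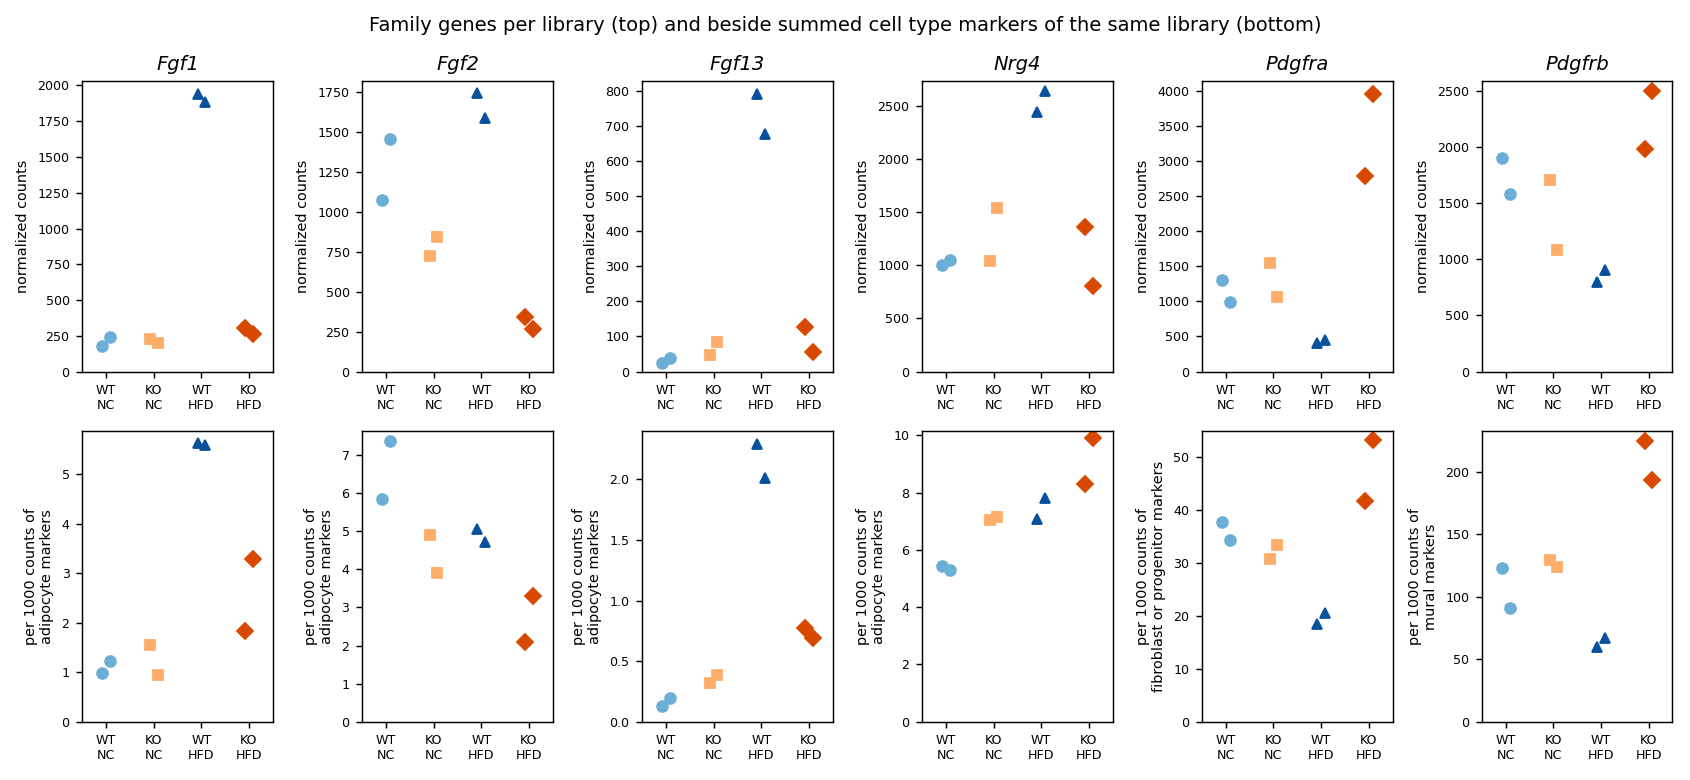
Normalized counts (top) and counts per 1000 counts of summed cell type markers in the same library (bottom) for 6 members, with 2 points per group and axes from 0. Per adipocyte markers, Fgf1 and Fgf13 stay highest in WT on HFD, whereas Nrg4 in Ad-Yap/Taz-KO on HFD (8.31 and 9.91) lies above WT on HFD (7.09 and 7.82), an order that is lost when Lep is left out of the marker sum.

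Members were also set beside the summed markers of a cell type in the same library, a description chosen after their values were seen. Per 1000 normalized counts of adipocyte markers, Fgf1 had 0.984 and 1.22 in WT on NC, 1.54 and 0.934 in Ad-Yap/Taz-KO on NC, 5.63 and 5.58 in WT on HFD, and 1.84 and 3.28 in Ad-Yap/Taz-KO on HFD. Fgf13 had 2.29 and 2.01 in WT fed HFD with 0.777 and 0.692 in the knockout, and Fgf2 5.06 and 4.71 against 2.1 and 3.29. On NC Fgf2 was lower in the knockout too, with 5.84 and 7.36 in WT against 4.89 and 3.91. These 3 members stayed lower in the knockout on HFD on this scale. Nrg4 did not, with 7.09 and 7.82 in WT on HFD against 8.31 and 9.91, and Pdgfc overlapped with 1.67 and 1.79 against 1.46 and 2.32. The leptin gene Lep, 1 of the 8 markers, had 72885 and 73642 normalized counts in WT on HFD and 7257 and 1545 in Ad-Yap/Taz-KO on HFD. With Lep left out of the sum, Nrg4 overlapped, both WT HFD values lying between those of the knockout (8.69 and 10.1), as did Pdgfc, while Fgf1 (7.14 and 7.14 against 1.93 and 3.34), Fgf2 and Fgf13 stayed lower in the knockout.

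Pdgfra per 1000 counts of fibroblast or progenitor markers was 18.5 and 20.6 in WT on HFD, 41.7 and 53.2 in Ad-Yap/Taz-KO on HFD, and 30.8 to 37.8 on NC, so it stayed higher in the knockout. Pdgfrb was higher per mural markers (59.8 and 67.0 against 224 and 193) and lower per fibroblast markers (36.6 and 41.1 against 29.6 and 33.6). The mural markers themselves split on HFD. Myh11 was called higher in the knockout (824 and 879 against 1401 and 2650), while Acta2 (2230 and 2048 against 408 and 787) and Cspg4 (2431 and 2410 against 2061 and 1025) were called lower. Pdgfb per endothelial markers was 12.9 and 12.4 in WT on HFD and 32.1 and 20.5 in Ad-Yap/Taz-KO on HFD, and Hbegf per endothelial markers 24.2 and 24.9 against 39.9 and 28.0. Per 1000 counts of macrophage markers both were lower in the knockout. Pdgfb had 97.6 and 93.1 for WT and 23.5 and 24.4 for the knockout under HFD. Hbegf had 182 and 186 for WT and 29.3 and 33.3 for the knockout under HFD, and 149 and 148 against 20.0 and 22.5 under NC. Sums of the lists themselves differ between groups, and the part of cell composition in these results was not tested.

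Other genes of the pathways came from a list of 41, of which 40 were tested. Between genotypes on HFD, 5 were called higher and 6 lower (27.5%, against 32.2% of all genes), with a median of 0.02. Spred1, an inhibitor of the RAS to ERK pathway, was higher on both diets (on HFD 1026 and 1178 normalized counts in WT with 2702 and 2903 in the knockout, log2 fold change 1.35, adjusted p = 6.3e-05, and 0.95 on NC, adjusted p = 0.0043), and so was Adam17, the sheddase of EGFR ligands (0.77, adjusted p = 0.0019, and 0.74, adjusted p = 0.013). Higher on HFD were also Spred3 (2.56), of the same family as Spred1, the transcription factor gene Klf10 (1.03) and Rhbdf2 (0.94), whose product brings ADAM17 to the cell surface.

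Fgfrl1, a receptor without a kinase domain, was lower on HFD (6231 and 6296 normalized counts in WT with 2276 and 1260 in the knockout, -1.89, adjusted p = 7.7e-05). Klb, the β-klotho co-receptor of FGF21, was lower as well (1727 and 1825 against 1035 and 508, -1.29, adjusted p = 0.0028), with the phosphatase gene Ptpn11 (-1.28), Rhbdf1 (-0.84) and the feedback inhibitor Spry4 (-0.78). Errfi1, an inhibitor of EGFR, was the remaining gene that was lower on HFD (-0.63). The calls of Spry4 and Errfi1 were lost with WT HFD as 1 sample (adjusted p = 0.062 and 0.12).

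On NC 2 of the 40 were higher (Spred1 and Adam17) and 3 lower (12.5% in all, against 4.71% of all genes). The lower genes were Dusp6, a phosphatase of ERK (-0.76), Errfi1 (-0.72) and the early response factor Egr1 (-0.97). Each of these 5 calls was lost without at least 1 of the WT NC libraries, and Dusp6 and Errfi1 also with WT HFD as 1 sample (adjusted p = 0.11 and 0.12). HFD against NC in WT gave 2 higher (Fgfrl1, 0.87, and Ptpn11, 0.78) and 6 lower (20.0% in all, against 18.0% of all genes), led by Spred3 (-2.31), Lrig3 (-1.65), Klf10 (-1.22), Dusp6 (-0.93) and Rhbdf2 (-0.81). With WT HFD as 1 sample 3 of these 8 calls were left, all lower (Spred3, Lrig3 and Klf10), and the calls of Fgfrl1, Ptpn11, Dusp6, Rhbdf2 and Egr1 were lost (adjusted p = 0.063 to 0.18). The Lrig3 call was lost without the first WT HFD or the second WT NC library (adjusted p = 0.06 and 0.051).

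In Ad-Yap/Taz-KO limma called 0 of 40 for diet (1.07% of all genes were), with 7 at an unadjusted p under 0.05 (17.5%, against 15.5% of all genes). The genotype effect differed between diets for 7 (17.5%, against 17.4% of all genes), with Spred3 (2.82), Klf10 (1.29), Dusp6 (1.11) and Rhbdf2 (0.89) in the upward and Fgfrl1 (-1.46), Ptpn11 (-1.11) and Lrig1 (-0.94) in the downward direction. Of these, Spred3 alone was called with WT HFD as 1 sample, the other 6 having an adjusted p of 0.054 to 0.13.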

How the data were processed

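White adipocyte RNA was measured by RNA-seq in 4 groups of 2 libraries each. The authors depleted ribosomal RNA, prepared libraries with a stranded kit, and, per the submitters' processing notes, used FastQC, STAR 2.5.2b, featureCounts 1.5.1 (Subread) and DESeq2 1.14.1 with GRCm38. Reads over several genes or places were left out. The deposited values are of no standard unit and were treated as a score: the authors scaled the reads of each gene by a library-wide size factor, then rounded. The method behind the size factors and the strand setting are not given in the sources used here.

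Groups came from the labels. The value of 1 read was estimated from the spacing of low values. Genes with a mean of at least 5 (18800 of 30387) were fitted as log2(value + 1), a pseudocount of 1, with limma 3.58.1 under R 4.3.3 (lmFit, contrasts.fit, then eBayes with trend), with 4 group means and 4 residual and 8.59 prior degrees of freedom. The fit was run on simulated libraries that all had the same spread, unlike the groups here, so this checked the code and not the p-values. P-values measure the spread between libraries, which may be technical in WT on HFD. Fold changes on this scale understate those of low genes.

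Members and gene lists were chosen with earlier results of these data known. Values in every library are given for members called in a comparison and for the member of each role with the highest level per length. Of the pathway list, at most 5 called genes in each direction were named by size for each comparison; Errfi1 on HFD was named in addition, after its value was seen. Exon lengths and overlaps came from GENCODE vM21, and sequences from RefSeq. Alternatives were pseudocounts of 0.1 and 8, no filter or a mean of at least 50, other scalings, fits of the compared groups alone, eBayes made robust, a block for the replicate number, WT HFD averaged to 1 sample, and leaving out each library. Tables and figures used Python 3.11.15, pandas 2.3.3, numpy 2.4.6 and matplotlib 3.10.9.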

Additional observations from a re-analysis of the deposited data

Results flagged for a closer look

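For 12 members the genotype effect on HFD differed from that on NC in limma's test of the difference itself (adjusted p of at most 0.05). The log2 difference was negative, so that the knockout lay lower relative to WT on HFD than on NC, for Fgf13 (-4.12), Fgf1 (-2.80), Btc (-1.85), Fgf2 (-1.78), Nrg4 (-1.59), Fgf10 (-1.19) and Pdgfc (-0.95). It was positive for Pdgfra (2.79), Fgf7 (2.22), Pdgfb (1.80), Pdgfrb (1.74) and Hbegf (1.73). Of all genes tested 17.4% passed this test. Fgf1, Fgf2, Fgf13, Hbegf, Pdgfra and Pdgfrb passed it in all 10 alternatives and without each of the 8 libraries, and the other 6 did not pass with WT HFD as 1 sample. With 2 libraries in each group no group could be searched for outlying libraries.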

How the results depend on the processing

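No member called in a comparison changed direction in any alternative. Between genotypes on HFD, 9 of the 15 calls (Fgf1, Fgf2, Fgf13, Nrg4, Pdgfc, Pdgfra, Pdgfrb, Pdgfb and Hbegf) were kept in all 11 alternatives and without each of the 8 libraries. Fewer members were called with WT HFD as 1 sample and without the second Ad-Yap/Taz-KO HFD library. The share of all genes called was then also smaller than the 32.2% with all libraries. Leaving out other libraries gave more calls among the members in some fits. Between genotypes on NC the 1 call became 0 with pseudocounts of 0.1 or 8, no filter, a mean of at least 50, the compared groups alone, the replicate block, or WT HFD as 1 sample (over all genes 3.99%, 5.15%, 1.44%, 7.16%, 2.45%, 3.83% and 3.45%, from 4.71%), became 2 with quantile normalization, which added Fgf2, and was 0 to 1 when 1 library was left out, the 1 being Fgf2 or Hbegf and never Areg. Scaling to the same total and upper-quartile scaling called Fgf2 in place of Areg. For diet in WT the 9 calls became 3 with WT HFD as 1 sample (2.87% of all genes, from 18.0%) and 3 to 9 when 1 library was left out, 3 being without the first WT NC or the second WT HFD library (3.34% and 4.19%). Fgf1, Fgf13 and Pdgfra were kept in all of these. For diet in Ad-Yap/Taz-KO the 3 calls became 0 with no filter, the compared groups alone or WT HFD as 1 sample (3, 0 and 28 calls over all genes, from 202), and 0 to 6 when 1 library was left out, 6 being without the first and 0 without the second Ad-Yap/Taz-KO NC library (5.11% and 0.0745% of all genes, from 1.07%), 0 also without either WT HFD library or the second Ad-Yap/Taz-KO HFD library. For the difference of effects the 12 calls became 6 with no filter (2.37% of all genes, from 17.4%). Fewer members, and a smaller share of all genes, were also called with WT HFD as 1 sample. The same held without the first WT NC or the second WT HFD library, and both rose without the first Ad-Yap/Taz-KO NC library. Outside the NC comparison, the calls over all genes fell or rose with those of the members wherever both are given. The cause was not tested. The compared groups alone could not be used for the difference of effects.

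Libraries with the same replicate number did not deviate together (correlation of deviations from the group means across genes -0.11 to 0.04 over the 6 pairs of groups), so the numbers do not pair the samples. With the replicate number as a block, diet in Ad-Yap/Taz-KO gave 2 calls (0.596% of all genes) and the difference of effects 8 (13.7%), and with the numbers crossed in Ad-Yap/Taz-KO on HFD, an alternative chosen after seeing the data, diet in Ad-Yap/Taz-KO gave 5 (3.72%).

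Members under about 50 normalized counts had few reads, where 3 reads or fewer decide a value at 0, and 14 of the 47 members were at 0 in some library. Among genes with 5 to 20 reads the libraries of a group differed by 4.63 to 6.33 times counting noise, so depth was not the only limit.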

Other observations

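Of the 18 members that were tested and called in no comparison, 11 had a mean under 50 normalized counts. Fgfr4 and Nrg2 had the largest differences of effects among them (2.87 and 4.69 on the log2 scale, adjusted p = 0.14 and 0.096), at 2 to 52 and 0 to 17 normalized counts. Ereg, an EGFR ligand of the same gene cluster as Areg, had 1 and 1 normalized counts in WT on NC, 25 and 0 in Ad-Yap/Taz-KO on NC, 6 and 1 in WT on HFD, and 39 and 27 in Ad-Yap/Taz-KO on HFD.

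Other marker lists moved as follows between the lowest and the highest library of a group. The mural sum was 13285 to 13539 normalized counts in WT on HFD and 8844 to 12957 in Ad-Yap/Taz-KO on HFD, and the endothelial sum 15064 to 15605 and 19488 to 30276. On NC the endothelial sum was 23917 to 29204 in WT and 12518 to 22368 in Ad-Yap/Taz-KO. For diet in WT all 8 endothelial markers were below their NC values in both HFD libraries and 3 were called lower (Tek, Pecam1 and Kdr). In the same comparison 7 of 8 macrophage markers and 3 of 8 fibroblast markers (Dcn, Lum and Ly6a) were called lower. None of these 3 lists had a marker called higher. Pdgfb and Hbegf fell in this comparison too, and the part of these cells in those falls was not tested. For WT and Ad-Yap/Taz-KO on HFD, the mesothelial sum was 206 to 240 and 338 to 764, and the lymphocyte sum 41 to 45 and 140 to 291. The Schwann or nerve sum was 838 to 844 and 515 to 657, and the sum of the 3 epididymal markers with a row 33 to 38 and 21 to 57. Of the 7 tested mesothelial markers, Wt1 was called higher in the knockout on HFD (46 and 54 against 310 and 531). Msln was called lower (15 and 19 against 0 and 2), and the median log2 fold change of these markers was -0.61.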
